A study of Mus musculus with 8 samples.

Results

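The cyclin-dependent kinases Cdk1, Cdk2, Cdk4 and Cdk6 and the cyclins Ccnd1, Ccnd2, Ccnd3, Ccne1 and Ccne2 were followed in RNA sequencing of mouse hematopoietic stem cells. These 9 genes were taken by name from a table of 52224 genes, and all 9 were listed in it. The cells were CD48-negative and CD150-positive cells of the LSK fraction (lineage-negative, Sca-1-positive, Kit-positive) of bone marrow. The groups were 4 libraries with the genotype DekTg and 4 with the genotype DekCon. The labels give the genotype names, repeat them in place of a treatment, and add no allele, promoter, age or agent. They do not say that the libraries of a group came from separate mice, so a p-value here measures the spread between libraries, which may be technical. The series concerns the chromatin protein DEK in replication stress and in stem cells with Fanconi anemia. The comparison asks which transcripts differ between DekTg and DekCon stem cells.

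A cyclin-dependent kinase is active only when bound to a cyclin. D cyclins are made in response to growth signals and bind Cdk4 or Cdk6, and these complexes phosphorylate the retinoblastoma protein and its relatives, which frees E2F transcription factors. E2F factors raise the E cyclins, which activate Cdk2 and carry the cell into DNA synthesis, and Cdk1 with A and B cyclins later drives mitosis. Most hematopoietic stem cells in adult marrow rest outside the cycle, and the level of CDK6 is known from work in mouse and human stem cells to bear on how fast they leave rest.

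Libraries held 2642858 to 3591212 recovered reads in DekTg and 2525884 to 4101132 in DekCon (p = 0.457 by an exact permutation test, two-sided, and 0.686 after adjustment for 3 measures of a library). Summed normalized reads were 3053032 ± 95599 in DekTg and 3242943 ± 192567 in DekCon (SD, n = 4 each). The same exact permutation test gave p = 0.114 for that sum, and 0.343 after adjustment. Markers of the sorted cells were present, with Slamf1, which encodes CD150, at 201 ± 12 normalized reads in DekTg and 268 ± 31 in DekCon (SD, n = 4 each), and Kit at 1309 ± 170 in DekTg and 1298 ± 152 in DekCon. Cd48 RNA was not absent, at 207 ± 26 in DekTg and 195 ± 62 in DekCon. Dek, the gene named in the genotypes, was listed at 1862 to 2710 in DekTg and at 395 to 632 in DekCon, but none of its 4 DekTg values is a whole number of reads. None of the 12 genes listed as sort and identity markers passed the test. Of these, 8 had a log2 fold change of DekTg over DekCon above 0, Slamf1 being among the other 4. Among the 8 were Cd48, which the sort excludes, and Cd34 and Flt3, which are not specific to stem cells (0.14, 0.60 and 0.73). That count is therefore not one of stem cell markers alone. DekCon replicates 2 and 3 were lower than the other 6 libraries in several of the 12. Procr, for one, was at 52.4 to 72.4 in DekTg and at 73.5, 13.4, 40.5 and 55.6 in DekCon, and Flt3 at 688 to 845 in DekTg and at 837, 161, 385 and 847 in DekCon. DekCon replicate 2 stood apart in other markers too. Its summed megakaryocyte markers reached 10031 against 2837 to 5188 in the other DekCon libraries, and its summed proliferation markers reached 5543 against 2929 to 3765. Libraries 1 and 4 of a group were closer to each other than other pairs: the mean chi-square per gene between them was 1.77 in DekTg and 1.63 in DekCon, where sampling noise gives about 1 and other pairs of the same group gave 5.17 to 12.8. They were kept as separate libraries, and averaging them is one of the alternatives.

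The values are normalized read counts: the deposited numbers behave as reads per gene scaled by a single factor in each library, with no correction for gene length. A value is therefore a whole number of reads times a step, which was 0.82 to 1.2 in DekTg libraries and 0.77 to 1.27 in DekCon libraries. For Cdk1, 6 of 8 values are not whole multiples of the step, all 4 in DekTg and 2 in DekCon, and no change of Cdk1 is taken as measured.

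Promoter stretches of the 3 kinases measured with whole reads are shown because they differ in the short sequence elements known from cell cycle promoters. Sequences are from RefSeq (GRCm38.p6), and the promoter table used matched 6 of the 9 genes: Cdk1, Cdk2, Cdk4, Cdk6, Ccnd3 and Ccne1. The 250 bases before each start were searched on both strands for the E2F element (TTTCCCGC, TTTCGCGC, TTTGCCGC or TTTGGCGC), the CCAAT box (CCAAT), the GC box (GGGCGG) and the cell cycle homology region (TTTGAA or TTCGAA), and no match overlapped another in these genes. The stretches run 5′ to 3′ on the strand of the gene up to the start in the RefSeq entry, with matches in capitals. For Cdk6 that start lies downstream of the outermost start in GENCODE, so the stretch falls inside the gene as GENCODE bounds it. They were kept short of exons of other transcripts and lie at chr10:128705052-128705191 (Cdk2, minus strand, 140 bases), chr10:127063395-127063534 (Cdk4, plus strand, 140 bases) and chr5:3343763-3343892 (Cdk6, plus strand, 130 bases).
Cdk2: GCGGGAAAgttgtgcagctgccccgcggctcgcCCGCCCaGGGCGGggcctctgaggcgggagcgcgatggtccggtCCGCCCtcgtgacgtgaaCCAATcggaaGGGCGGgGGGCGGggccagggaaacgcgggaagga
Cdk4: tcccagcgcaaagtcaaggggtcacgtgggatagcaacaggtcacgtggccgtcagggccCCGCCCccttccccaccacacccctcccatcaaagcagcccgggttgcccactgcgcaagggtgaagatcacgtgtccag
Cdk6: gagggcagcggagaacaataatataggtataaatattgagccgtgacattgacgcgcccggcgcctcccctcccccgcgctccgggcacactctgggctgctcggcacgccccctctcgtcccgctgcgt

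The Cdk2 window held 1 E2F match, on the other strand, together with 1 CCAAT box and 5 GC boxes. The Cdk4 window held 1 GC box. The Cdk6 window held no match, which says only that these letters are not in it. The Ccne1 window held 4 GC boxes, and the 2 windows of Ccnd3, which has 2 starts in the table, held 3 GC boxes and 1 CCAAT box between them. The Cdk1 window held 1 E2F match, 3 CCAAT boxes, 2 GC boxes and 2 cell cycle homology regions. Of 32851 RefSeq windows of 250 bases, 1.86% held an E2F match, 33.9% a CCAAT box, 32.7% a GC box and 17.1% a cell cycle homology region. The matches are descriptions of letters and not binding sites.

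Per kb of exon, the kinases that D cyclins activate had the highest levels of the members. Divided by annotated exon length (GENCODE M21, GRCm38), Cdk6 had a mean of 743 normalized reads per kb over the 8 libraries (range 542 to 999) and Cdk4 had 322 (283 to 401). Ccnd2 followed with 177 per kb (144 to 291), Ccnd3 with 82.3 (52.2 to 126) and Cdk2 with 63.4 (51.0 to 85.9). Ccne2 had 27.0 per kb (17.7 to 40.8), Ccne1 had 14.9 (7.14 to 25.1) and Ccnd1 had 14.6 (11.3 to 19.7). The ranges of neighbours in this order did not overlap between Cdk6 and Cdk4, between Ccnd2 and Ccnd3, or between Cdk2 and Ccne2, and overlapped at the other 4 steps. With the length of the longest coding transcript in place of all annotated exon, Ccnd3 (342 per kb) stood above Ccnd2 (263), so the order of those 2 D cyclins rests on the choice of length, and this second length was chosen after seeing the data.

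In the same annotation the kinase genes lie on chromosome 5 between 3341485 and 3531008, plus strand (Cdk6), chromosome 10 between 127063534 and 127067920, plus strand (Cdk4) and chromosome 10 between 128697939 and 128705031, minus strand (Cdk2). Cdk1 lies on the minus strand of chromosome 10, between 69335146 and 69352938. The D cyclin genes lie on chromosome 7 between 144929931 and 144939925, minus strand (Ccnd1), chromosome 6 between 127125162 and 127152193, minus strand (Ccnd2) and chromosome 17 between 47505051 and 47599691, plus strand (Ccnd3). The E cyclin genes lie on chromosome 7 between 38097984 and 38107534, minus strand (Ccne1) and chromosome 4 between 11191351 and 11204779, plus strand (Ccne2).

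**Figure D1:**
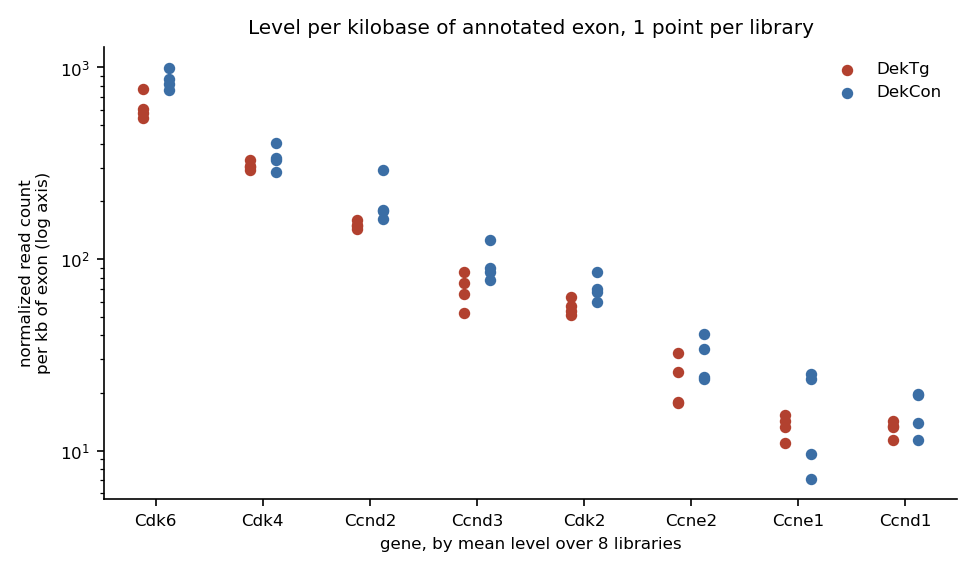
Normalized read count per kilobase of annotated exon on a log axis, with 1 point per library, DekTg left of DekCon for each gene. Cdk6 lies highest at 542 to 999 and Ccnd1 has the lowest mean at 14.6.

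No member measured with whole reads passed the test. Across all genes, 13 of 37414 (0.0347%) had an adjusted p under 0.05 by limma with Benjamini-Hochberg adjustment, and none of the 8 members was among them. That fit kept the 6 genes that hold fractional reads, and on leaving those genes out 8 of 37409 (0.0214%) passed. Of the 8 members, 4 had an unadjusted p under 0.05 (Cdk6, Ccnd3, Ccnd2 and Cdk2), against 6.93% of all genes tested. Among the 70 other genes of the pathway described below, 10 did. All 8 members had log2 fold changes of DekTg over DekCon below 0, with a median of -0.35. Over all genes tested 49.4% lay below 0, with a median of 0.0057. Most of those genes were lower in level. The median gene tested had a mean of 17.1 normalized reads, and the lowest mean of a member was 39.7 (Ccne1). Cdk4 was above 0 with quantile normalization (0.025) and Ccne1 with library weights (0.039). The 8 members are not independent of each other, and 7 of them had their highest value in the same library, DekCon replicate 2. Without that library 7 of the 8 lay below 0, their median was -0.21 and 1 had an unadjusted p under 0.05. Over 25 alternatives the number with an unadjusted p under 0.05 ran from 1 to 6. Summed proliferation markers were 2696 to 3437 in DekTg and 2929 to 5543 in DekCon, and none of the 6 passed the test. Megakaryocyte markers were 2154 to 3595 in DekTg and 2837 to 10031 in DekCon, and granulocyte markers were 2114 to 14225 in DekTg and 3702 to 9772 in DekCon, with DekTg replicate 3 at 14225 and the other DekTg libraries at 2114 to 4495. All 7 granulocyte markers had log2 fold changes below 0 on the deposited scaling, and none passed the test. B cell and plasma cell markers were 4569 to 5399 in DekTg and 491 to 1268 in DekCon, with 2 of 9 passing the test (Igkc and Jchain, higher in DekTg), and erythroid markers were 477 to 610 in DekTg and 156 to 440 in DekCon, with 3 of 8 passing (Hbb-bs, Hba-a2 and Hba-a1, higher in DekTg). Of the other erythroid markers, Epor and Klf1 had log2 fold changes of -1.06 and -0.89 (limma adjusted p = 0.711 and 0.727). No marker in these lists was at 0 in all libraries. The part of these markers in the members' values was not tested, and in bulk libraries fewer cells of a type cannot be told apart from less RNA per cell.

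**Figure D2:**
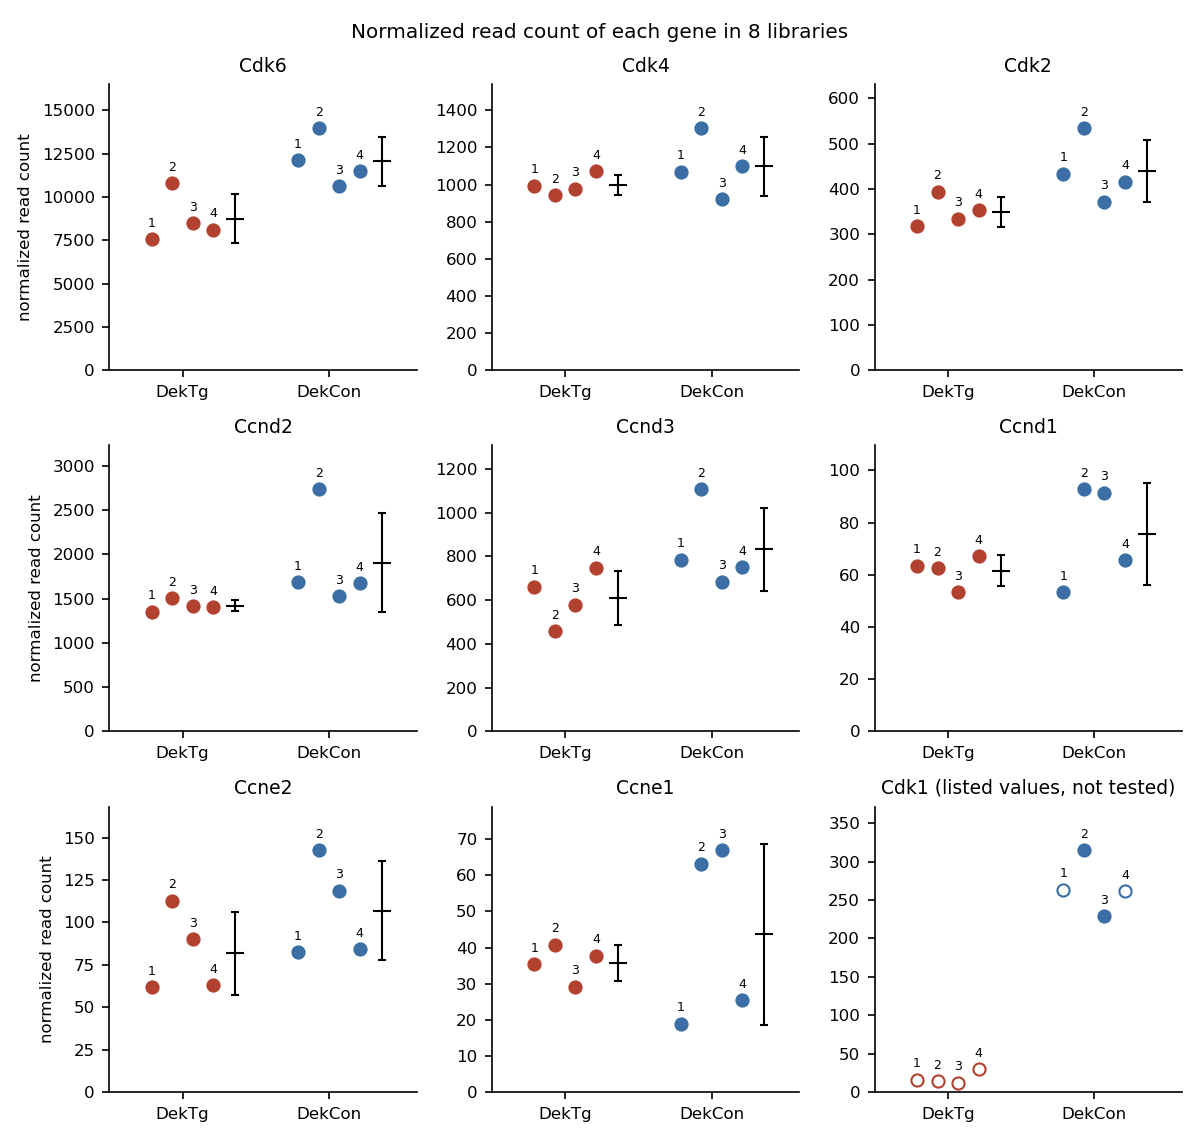
Normalized read count of the 9 genes in each library (linear axis from 0, points numbered by replicate, DekTg left of DekCon), with the mean and SD of 4 libraries in black. Open points mark the 6 Cdk1 values that do not correspond to whole reads, and no mean is drawn for that gene. Among the 8 genes measured with whole reads, only Ccnd2 has DekTg values (1354 to 1505) that all lie below its DekCon values (1525 to 2737).

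Cdk6, which pairs with D cyclins and is the main such kinase in blood cells, had 7579, 10784, 8486 and 8102 normalized reads in DekTg libraries 1 to 4, and 12138, 13978, 10627 and 11499 in DekCon libraries 1 to 4. Libraries 1, 3 and 4 of DekTg lay below every DekCon library, and DekTg replicate 2 lay just above DekCon replicate 3, so the groups overlapped. DekTg over DekCon gave a log2 fold change of -0.47 with an SE of 0.16 (limma, adjusted p = 0.711), a fold of 0.722 with a 95% interval of 0.575 to 0.906. That interval is not adjusted for the number of genes tested. Across 25 alternatives the adjusted p of Cdk6 ranged from 0.251, with the replicate number as a block, to 0.944. The log2 fold change measured -0.40 on leaving out DekCon replicate 2 (adjusted p = 0.93) and -0.58 on leaving out DekTg replicate 2.

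Cdk4, the other D cyclin kinase, had 993, 943, 978 and 1071 normalized reads in DekTg, and 1069, 1304, 921 and 1100 in DekCon. DekTg values fell inside the range of DekCon. On the log2 scale the difference was -0.13 with an SE of 0.12 (limma, adjusted p = 0.845), a fold of 0.913 with a 95% interval of 0.761 to 1.10. It was -0.045 without DekCon replicate 2 and -0.21 without DekCon replicate 3. Exons of Tspan31 on the opposite strand share 19.7% of the annotated exon bases of Cdk4, and reads of both cannot be told apart where the strand setting is not given. Tspan31 itself was at 202 to 273 normalized reads in DekTg and 233 to 280 in DekCon.

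The balance between these 2 kinases was computed within each library from levels per kb. Cdk6 over Cdk4 was 1.77, 2.66, 2.01 and 1.76 in DekTg, and 2.64, 2.49, 2.68 and 2.43 in DekCon. Libraries 1, 3 and 4 of DekTg lay below all DekCon ratios, and DekTg replicate 2 lay among them. The mean ratio was 2.05 ± 0.42 in DekTg and 2.56 ± 0.12 in DekCon (SD, n = 4 each), given as a description.

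**Figure D3:**
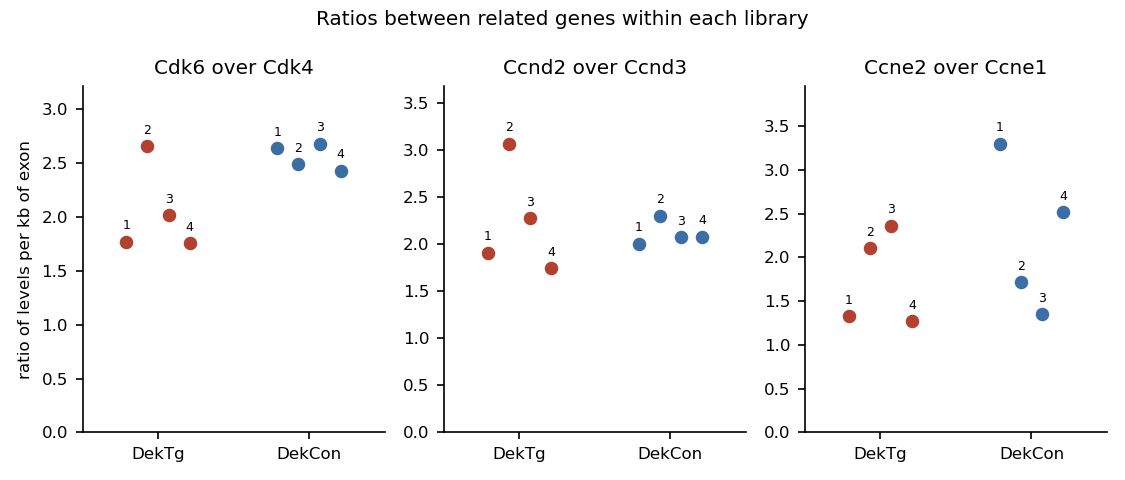
Ratios of levels per kb between related genes within each library (linear axis from 0, points numbered by replicate, DekTg left of DekCon). Cdk6 over Cdk4 is lower in DekTg libraries 1, 3 and 4 (1.76 to 2.01) than in any DekCon library (2.43 to 2.68), with DekTg replicate 2 (2.66) inside the DekCon range. All 3 ratios overlap between the groups.

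Cdk2, the kinase that E cyclins activate at the start of DNA synthesis, had 317, 394, 334 and 353 normalized reads in DekTg, and 434, 534, 372 and 416 in DekCon. DekTg replicate 2 was the 1 DekTg library above the lowest DekCon library. For Cdk2 the log2 fold change came to -0.32 with an SE of 0.13 (limma, adjusted p = 0.711), a fold of 0.801 with a 95% interval of 0.659 to 0.973. Without DekCon replicate 2 it was -0.22 (adjusted p = 0.93).

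Ccnd2, a D cyclin induced by growth factor signals in blood cells, had 1354, 1505, 1412 and 1401 normalized reads in DekTg, and 1687, 2737, 1525 and 1673 in DekCon. The groups did not overlap, with all 4 DekTg libraries lower. Ccnd2 was 1 of 8 members with that pattern, which 1.88% of all genes tested showed. limma gave Ccnd2 a log2 fold change of -0.39 with an SE of 0.16 (adjusted p = 0.711), a fold of 0.765 with a 95% interval of 0.607 to 0.964. The SD was 63.2 over DekTg libraries and 559 over DekCon libraries, of which replicate 2 was the highest. Leaving that library out gave -0.20 (adjusted p = 0.93).

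Ccnd3, the D cyclin known for its role in lymphoid and erythroid precursors, had 661, 458, 579 and 749 normalized reads in DekTg, and 786, 1108, 685 and 751 in DekCon. DekTg libraries 1, 2 and 3 lay below every DekCon library, and DekTg replicate 4 lay within the DekCon range. The difference for Ccnd3 was -0.44 on the log2 scale with an SE of 0.17 (limma, adjusted p = 0.711), a fold of 0.736 with a 95% interval of 0.577 to 0.939. It was -0.30 without DekCon replicate 2 and -0.31 without DekTg replicate 2.

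Ccnd1, the D cyclin common in non-blood tissues, had 63.5, 62.5, 53.4 and 67.2 normalized reads in DekTg, and 53.2, 92.8, 91.4 and 65.6 in DekCon. DekCon fell into libraries 2 and 3 above all of DekTg and libraries 1 and 4 within or just below it. Its log2 fold change came to -0.26 with an SE of 0.19 (limma, adjusted p = 0.808), a fold of 0.834 with a 95% interval of 0.628 to 1.11. On leaving out 1 DekCon library it became -0.42 (replicate 1), -0.15 (replicate 2) or -0.16 (replicate 3). Exons of LTO1 on the opposite strand share 23.4% of its annotated exon bases. LTO1 itself was at 203 to 276 normalized reads in DekTg and 275 to 306 in DekCon.

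As shares of the summed D cyclin level per kb, Ccnd2 made up 64.7 ± 4.9% in DekTg and 64.3 ± 1.7% in DekCon (SD, n = 4 each). Ccnd3 made up 29.7 ± 4.9% in DekTg and 30.5 ± 1.3% in DekCon, and Ccnd1 made up 5.60 ± 0.42% in DekTg and 5.26 ± 1.53% in DekCon. These shares use all annotated exon, and which D cyclin holds the largest rests on that choice of length. By the longest coding transcript, Ccnd3 had a mean of 342 per kb over the 8 libraries and Ccnd2 had 263. The shares differed between the groups by less than their SD, while the summed D cyclin level was 233 ± 10 per kb in DekTg and 313 ± 83 in DekCon. The sum in DekCon replicate 2 was 437, against 260 to 280 in the other DekCon libraries and 225 to 248 in DekTg.

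The summed level of the E cyclins, which activate Cdk2, was 36.9 ± 7.6 per kb in DekTg and 47.0 ± 17.3 in DekCon (SD, n = 4 each). Ccne2 had 61.8, 113, 90.3 and 63.0 normalized reads in DekTg, and 82.4, 143, 119 and 84.1 in DekCon. In each group libraries 2 and 3 were higher than libraries 1 and 4. Ccne2 differed by -0.39 on the log2 scale with an SE of 0.22 (limma, adjusted p = 0.752), a fold of 0.765 with a 95% interval of 0.555 to 1.05. That difference was -0.24 without DekCon replicate 2. Over all 8 libraries, a term for libraries 1 and 4 left it at -0.39 with an SE of 0.15 (limma, adjusted p = 0.540). Exons of Ints8 on the opposite strand share 17.4% of the annotated exon bases of Ccne2. Ints8 itself was at 184 to 208 normalized reads in DekTg and 181 to 198 in DekCon, above Ccne2 in every library.

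Ccne1 had 35.4, 40.8, 29.1 and 37.8 normalized reads in DekTg, and 19.0, 63.2, 66.9 and 25.5 in DekCon. The DekCon libraries split into 2 that were lower than all of DekTg (1 and 4) and 2 that were higher (2 and 3), and the lowest of them rested on 15 reads. limma gave Ccne1 a log2 fold change of -0.09 with an SE of 0.33 (adjusted p = 0.969), a fold of 0.937 with a 95% interval of 0.577 to 1.52, so changes within that span cannot be told from 0 at this spread. Leaving out 1 library turned it to 0.15 (DekCon replicate 2) or 0.17 (DekCon replicate 3), and gave -0.41 without DekCon replicate 1.

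**Figure D4:**
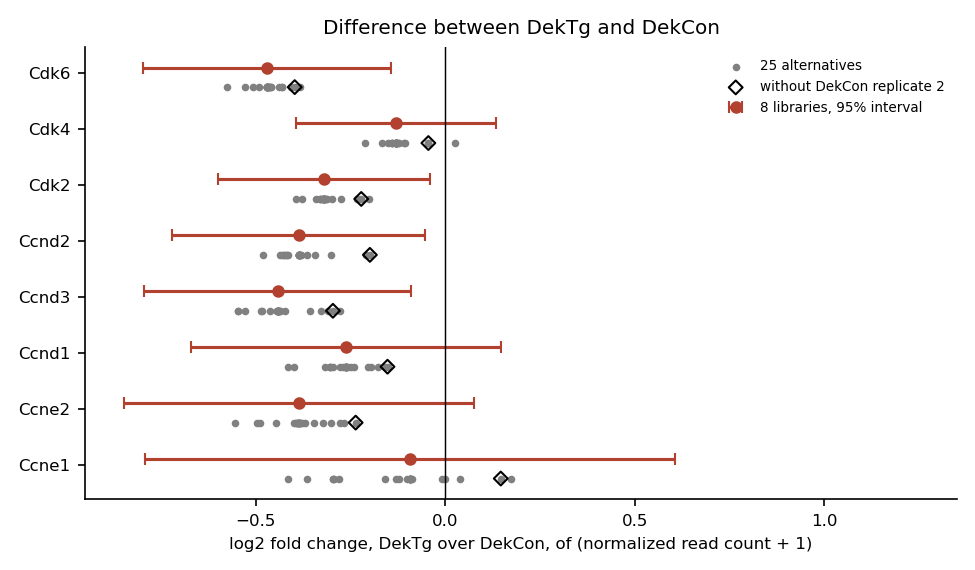
Log2 fold change of DekTg over DekCon for the 8 genes measured with whole reads. Red points and bars give the value from 8 libraries with its 95% interval, grey points the 25 alternatives and open diamonds the value without DekCon replicate 2. The intervals of Cdk6, Cdk2, Ccnd2 and Ccnd3 lie below 0 before any adjustment, and that of Ccne1 runs from -0.79 to 0.61.

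Cdk1, the mitotic kinase, was listed at 16.2, 14.6, 12.4 and 30.2 in DekTg, and at 264, 315, 229 and 261 in DekCon. In units of reads the DekTg values were 19.7, 12.1, 12.7 and 28.8, and those of DekCon replicates 1 and 4 were 207.9 and 338.6. Values that are whole numbers of reads were left in DekCon replicates 2 and 3 only. How the other 6 arose is not given in the sources, and a fold change or test that uses them would not rest on read counts. The cyclins that bind Cdk1 had whole values in the same libraries. Ccnb1 had 279, 429, 343 and 274 normalized reads in DekTg, and 352, 884, 515 and 341 in DekCon, a log2 fold change of -0.57 with an SE of 0.24 (limma, adjusted p = 0.711). Ccnb2 was at 339 ± 81 in DekTg and 386 ± 111 in DekCon, with a log2 fold change of -0.17 (limma adjusted p = 0.864). The 4 A and B cyclins had a median of -0.12, and none passed the test.

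Across the 8 libraries some members varied together. Over log2 values, the highest Pearson's r of 28 pairs was 0.95, between Cdk2 and Cdk6. It was 0.94 between Cdk2 and Ccnd2, 0.895 between Ccnd1 and Ccne1 and 0.867 between Cdk4 and Ccnd3. Ccnd2 had 0.845 with Cdk4 and 0.83 with Cdk6. Ccne1 had 0.14 with Cdk6 and 0.054 with Cdk4, the lowest of the pairs. These points share their libraries, size factors and the 2 groups, and the values are descriptions over 8 libraries. Among 7602 tested genes with a mean of at least 100, the 3 whose log2 values followed Cdk6 most closely were Znrf2 (r = 0.9875), Srpk1 (r = 0.9873) and H2-DMb1 (r = 0.9868).

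The other genes of the pathway were described by role, from lists of 70 tested genes. None of the 70 passed the test in either direction, and 10 had an unadjusted limma p under 0.05, against 6.93% of all genes tested. Of the 70, 57 had a log2 fold change below 0, against 49.4% of all genes tested, and their median was -0.16. Without DekCon replicate 2 the median of the 70 was -0.10 and 52 lay below 0. With the same total per library, which moved the median of all genes to 0.08, 42 of the 70 lay below 0. Of the 3 subunits of the kinase that activates the cyclin-dependent kinases, Ccnh had -0.34 and Mnat1 had 0.10 (limma adjusted p = 0.711 and 0.915). Of the 3 inhibitors of the Cip/Kip family, Cdkn1a, which encodes p21, had -0.28 and Cdkn1b, which encodes p27, had -0.09 (adjusted p = 0.803 and 0.953). Of the 3 tested INK4 inhibitors, which block Cdk4 and Cdk6, Cdkn2d had -0.34 and Cdkn2c had -0.30 (adjusted p = 0.711 and 0.866), while Cdkn2a did not reach the filter on low values.

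Cdkn2d had 180, 192, 196 and 178 normalized reads in DekTg, and 237, 265, 224 and 225 in DekCon, with no overlap between the groups. It was 1 of 3 of the 70 genes with all DekTg libraries lower, the others being Myc and Stat5a, against 1.88% of all genes tested. Of 3 retinoblastoma family genes, which restrain E2F factors, Rb1 had -0.25 and Rbl1 had -0.18 (adjusted p = 0.823 and 0.854). The 10 E2F and DP factors had a median of -0.19, with Tfdp1 at -0.36 and E2f4 at -0.31 (adjusted p = 0.717 and 0.758).

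Of 5 phosphatases and kinases that switch the cyclin-dependent kinases on or off, the phosphatase Cdc25b had -0.64 and the inhibitory kinase Pkmyt1 had -0.41 (limma adjusted p = 0.711 and 0.768). Among 10 genes for turnover of cyclins and inhibitors, Gsk3b had -0.42 and Fzr1, an activator of the anaphase-promoting complex, had -0.63 (adjusted p = 0.711 and 0.711). The 6 genes that carry growth signals to the D cyclins had a median of -0.19, with Mycn at -0.78 and Myc at -0.33 (adjusted p = 0.707 and 0.711). Mycn had 316, 171, 242 and 362 normalized reads in DekTg, and 422, 747, 351 and 370 in DekCon, so the groups overlapped at a single pair of libraries. The 12 other cyclin-dependent kinases had a median of -0.04, with Cdk10 at -0.51 and Cdk9 at -0.26 (adjusted p = 0.711 and 0.808). The 11 other cyclins had a median of -0.07, with Ccnf at -0.30 and Ccni at -0.26 (adjusted p = 0.732 and 0.787).

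**Figure D5:**
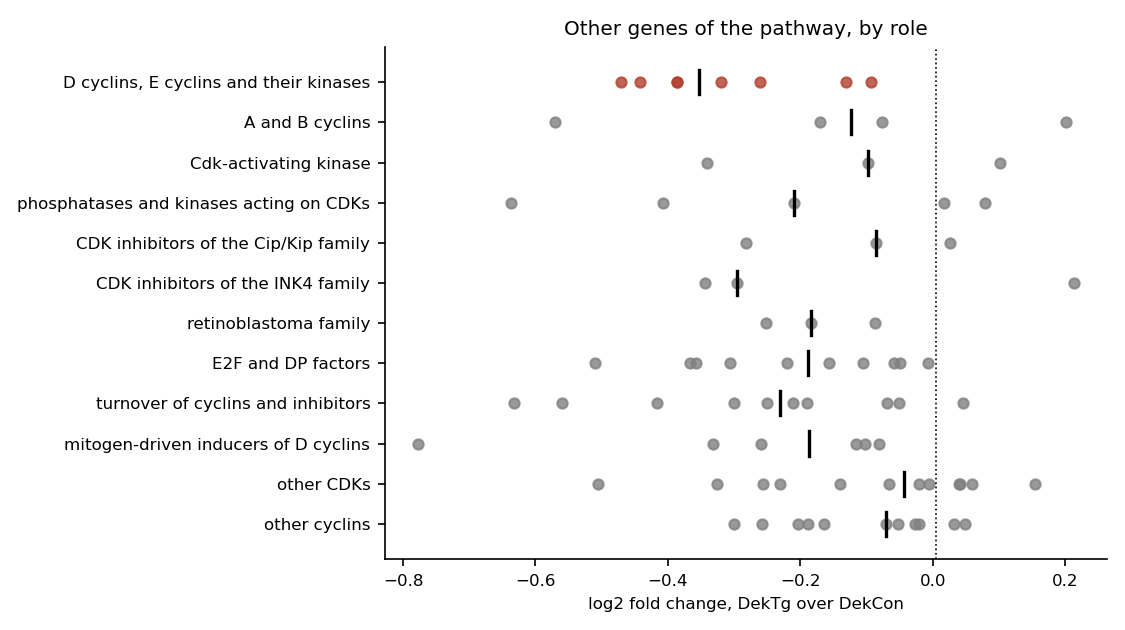
Log2 fold change of DekTg over DekCon for 70 other genes of the pathway by role (grey) and for the 8 members measured with whole reads (red). Each point is a gene, black bars are medians and the dotted line is the median of all genes tested (0.0057); the median of the red points is -0.35.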

How the data were processed

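Total RNA of sorted stem cells was amplified by Geo-seq, a protocol for few cells, and made into libraries with a TruePrep kit, per the labels' protocols. Tools in the submitters' processing notes are Bowtie 0.12.9 and Cufflinks 2.1.1 with HTSeq and DESeq2, on build mm10. What each did, the annotation and the strandedness were not given in the sources used here. What the authors deposited is a signal per gene and library, named FPKM, with DenCon in the column headers where the sample titles have DekCon. Within a library 99.994% of values were whole multiples of a single step (tolerance 0.001 reads), so the deposited signal was read as counts over a size factor; 25 values in 6 genes were not whole.

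Genes at 1 or more in at least 4 of 8 libraries were tested with limma 3.58.1 (trend, two-sided) on log2(value + 1), with Benjamini-Hochberg adjustment over 37414 genes and a threshold of 0.05. The scale understates changes of low genes. The fit was tested on simulated data. Recovered reads lack molecular identifiers. Exon lengths are from GENCODE M21. Members and lists were chosen with earlier results of these data known. Named genes were all members, list genes past the threshold or the 2 of smallest p, and the 3 closest to the most abundant member; Cdkn2d values, Myc, Stat5a and the genes overlapping members were chosen after their values were seen. edgeR 4.0.16 and DESeq2 1.42.0 ran on recovered reads without the 6 genes as alternatives, beside other filters, pseudocounts, scalings, limma options and left-out libraries.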

Additional observations from a re-analysis of the deposited data

Results flagged for a closer look

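Of 32 groups of 4 libraries examined, 2 held a value far from the rest of the group; chance alone gives about 1 in 20 such groups. Ccnd2 in DekCon replicate 2 was at 2737 normalized reads, against 1525 to 1687 in the other DekCon libraries. That library also held the highest value of 7 of the 8 members measured with whole reads, and its summed A and B cyclins were 1991, against 849 to 1277 in the other DekCon libraries. The share of Ccnd1 among the D cyclins in DekTg replicate 3 was 4.98%, against 5.74 to 5.89% in the other DekTg libraries; it rests on 55 reads of Ccnd1.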

How the results depend on the processing

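Under 25 alternatives, none of the 8 members passed the test, and 196 of 200 log2 fold changes kept their direction. The exceptions were Cdk4 with quantile normalization (0.025) and Ccne1 with library weights (0.039), without DekCon replicate 2 (0.15) and without DekCon replicate 3 (0.17). On leaving out a library Ccne1 ranged from -0.41 to 0.17, and the cause was not tested. The number of genes past the threshold was 13, against 24 with no filter, 4 without the trend and 8 on leaving out the 6 genes with fractional reads. It ranged from 13 to 22 on leaving out a library, with 22 without DekTg replicate 2. edgeR called 9 and DESeq2 called 16, none of them a member. The main limma fit gave an unadjusted p under 0.05 for 4 members. That number was 1 with no filter, without the trend, with quantile normalization, with libraries 1 and 4 averaged or without DekCon replicate 2. It was 2 without DekTg replicate 1 or 3, and 3 with the same total per library or without DekTg replicate 4. It was 5 with the replicate block or with a term for libraries 1 and 4, and 6 without DekCon replicate 1. Scaling to the same total moved the median of all genes to 0.08 and that of the members to -0.27. With quantile normalization the members' median was -0.23. With libraries 1 and 4 averaged, the smallest adjusted p of a member was 0.896. With the replicate number as a block 15 genes passed. The deviations of same-numbered libraries correlated at 0.009 to 0.157, and 2 of 8 libraries were closest to their own number, so the numbers were not taken as pairs. Ccne1 rested on 15 to 71 reads per library.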
